A study of Mus musculus with 6 samples.

Results

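The ADAMTS proteases and the ADAMTS-like proteins were followed in embryonic nose cartilage through 10 genes: Adamts1, Adamts2, Adamts3, Adamts5, Adamts6, Adamts9, Adamts17, Adamtsl1, Adamtsl2 and Adamtsl3. These 10 of the 38924 genes in the count tables were found by matching the Ensembl identifier of each row to its symbol, and each symbol matched 1 identifier. The list was chosen by family name with the counts of the genotype comparison in view, since Adamts17 and Adamtsl1 had been seen to differ between Apert and WT libraries. Differences between the genotypes in these 10 genes are therefore given below as descriptions, with no p of their own. Counts of calls among them stand only beside the share of all genes called.

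RNA-seq had been done on the cartilage of the anterior nasal septum, the wall between the nostrils, captured by laser from mouse embryos at embryonic day 14.5. The Apert group held 3 mice labelled Fgfr2+/S252W; EIIA-Cre, which carry 1 copy of a point mutation of the fibroblast growth factor receptor gene Fgfr2 that models Apert syndrome. The WT group held 3 mice labelled wild type, and both groups are labelled C57BL/6. EIIA-Cre is a transgene that acts broadly in the early embryo, so the mutant receptor is not limited to cartilage, and the labels name no Cre for the WT mice. Total counts ran from 6760510 to 10527915 in Apert libraries and from 8631181 to 10834744 in WT libraries (two-sided exact permutation test, p = 0.3, n = 3 each). Genes of the mitochondrial genome took 34.3% to 40.4% of counts in Apert libraries and 28.8% to 30.2% in WT libraries (two-sided exact permutation test, p = 0.1, the smallest that 3 against 3 libraries can give). The number of genes with a count separated the groups as well, at 18245 to 18529 in Apert and 18687 to 18942 in WT libraries (two-sided exact permutation test, p = 0.1). Fgfr2 was at 519 ± 58.9 CPM in Apert and 630.1 ± 61.7 CPM in WT cartilage (SD, n = 3 each; CPM scales each gene's count to a common, TMM-adjusted library size, and 1 count is 0.0867 to 0.162 CPM), and a point mutation cannot be checked from such counts.

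ADAMTS proteins are secreted zinc metalloproteases that cut the extracellular matrix. Some of them trim the propeptides of fibrillar procollagens, some cut aggrecan and versican, the large proteoglycans that fill cartilage and mesenchyme, and others act at fibrillin microfibrils. ADAMTS-like proteins share the ancillary domains of the family, including thrombospondin type 1 repeats, but have no protease domain, and several bind microfibrils.

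The sites that separate the proteases from the ADAMTS-like genes are printed first, because they show which of the genes encode a protease at all. A metalloprotease holds its zinc ion with the motif HEXXH and a further histidine shortly after it. The coding sequence of the longest translated transcript of each gene (GENCODE M21, GRCm38) was searched for the codons of that motif followed by the further histidine. The search followed the coding strand and the reading frame. The site was found once in each of the 7 Adamts genes and in none of Adamtsl1, Adamtsl2 and Adamtsl3, so the name protease covers 7 of the 10 genes. Of 21630 protein-coding genes searched in the same way, 0.439% held it. Each stretch below is 33 bases of coding strand, 5′ to 3′, with the codons of the 3 histidines and of the glutamate in capitals.
Adamts1: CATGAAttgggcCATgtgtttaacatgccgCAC
Adamts9: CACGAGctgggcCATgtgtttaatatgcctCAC
Adamts2: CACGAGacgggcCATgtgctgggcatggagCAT
Adamts3: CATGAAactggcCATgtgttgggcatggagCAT
Adamts5: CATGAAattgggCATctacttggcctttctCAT
Adamts6: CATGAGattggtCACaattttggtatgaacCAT
Adamts17: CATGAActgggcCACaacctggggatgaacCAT

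Adamts2 and Adamts3, the procollagen proteases, matched at 29 of these 33 bases, and Adamts1 and Adamts9 at 28. Adamts6 and Adamts17 matched at 25, and Adamts17 and Adamts9 at 18, the lowest number among the 21 pairs along with Adamts1 with Adamts6 and Adamts5 with Adamts9. The glycine codon that most metalloproteases of this type carry between the last histidines was found in 5 of the 7 sites, and Adamts1 and Adamts9 lacked it. In all 7 genes the site was split by an intron. From its first to its last base in GRCm38 it spans chr11:50775403-50776134 in Adamts2, chr13:104352847-104366809 in Adamts6 and chr7:66968898-67002473 in Adamts17 on the plus strand. On the minus strand it spans chr16:85799191-85799545 in Adamts1, chr5:89707433-89707818 in Adamts3, chr16:85878015-85887826 in Adamts5 and chr6:92905285-92908493 in Adamts9.

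The 10 genes are long, with 4822 to 12527 bases of exon each (median 7862.5, against 3648 for all tested genes) in 8 to 41 separate exon blocks. Their transcripts had a GC content of 43.0% to 54.2% (median 50.2%, against 48.9% for all tested genes). Adamts17 (mm10, chromosome 7, 66839735 to 67152625) and Adamtsl3 (chromosome 7, 82335694 to 82614450) lie on the chromosome of Fgfr2, 63.0 Mb and 47.5 Mb before it. Adamts1 (85793827 to 85803113) and Adamts5 (85858170 to 85901125) are neighbours on the minus strand of chromosome 16, with 55.1 kb between them. Adamtsl1 lies on chromosome 4 (86053915 to 86428385), Adamts3 on chromosome 5 (89673841 to 89883334) and Adamts9 on chromosome 6 (92772699 to 92943492). Adamts2 lies on chromosome 11 (50602084 to 50807573), Adamts6 on chromosome 13 (104287873 to 104494763) and Adamtsl2 on chromosome 2 (27079379 to 27108981). Of the 10 genes, Adamts9 shares exon bases with other genes, A730049H05Rik and Gm15737, over 14.4% of its exon length. Counting ignored strand, so its values are uncertain to that extent.

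All 10 genes had reads, and 9 passed the filter on low counts. Adamtsl2, which encodes a microfibril-binding protein, did not pass, with 0, 0 and 2 counts in Apert replicates 1 to 3 and 7, 0 and 2 in WT replicates 1 to 3. A count of 0 allows a level of up to 3 counts, which is 0.297 CPM in Apert replicate 1, 0.408 CPM in Apert replicate 2 and 0.289 CPM in WT replicate 2. These limits cover counting error only.

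Levels of different genes were compared as CPM per kb of exon. Adamts3 stood highest of the 10 genes in both groups, at 19.5 ± 1.55 CPM per kb in Apert and 22.8 ± 2.85 CPM per kb in WT cartilage (SD, n = 3 each), above 87.6% of tested genes in Apert and 90.6% in WT. Its lowest library, at 18.2 CPM per kb in Apert and 20.8 CPM per kb in WT, lay above every library of the next gene. Next in Apert cartilage came Adamtsl3 (6.45 ± 1.47 CPM per kb), Adamts6 (5.44 ± 0.526) and Adamts17 (3.81 ± 1.45). In WT cartilage the order was Adamts17 (6.03 ± 1.68 CPM per kb), Adamts6 (5.65 ± 2.02) and Adamtsl3 (3.40 ± 0.893). In both groups each of these 3 genes overlapped the one next to it in the order, so neighbours are not separated by the spread. In WT cartilage the lowest Adamts17 library (4.69 CPM per kb) lay above the highest Adamtsl3 library (4.43 CPM per kb). In Apert cartilage the libraries of Adamts17 and Adamtsl3 overlapped. Adamts1 followed at 1.89 ± 0.316 CPM per kb in Apert and 2.14 ± 0.792 in WT cartilage.

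Adamts9, Adamts2 and Adamtsl1 lay lower, each with a mean between 0.888 and 1.14 CPM per kb in Apert and between 0.423 and 0.894 CPM per kb in WT cartilage, and neighbours among them overlapped in both groups. Adamts5 was the lowest of the 9 genes, at 0.442 ± 0.0843 CPM per kb in Apert and 0.217 ± 0.172 CPM per kb in WT cartilage. In WT cartilage Adamts5 lay above 1.10% of tested genes and Adamtsl1 above 4.25%. Adamts5 encodes a major aggrecanase of adult mouse cartilage.

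**Figure D1:**
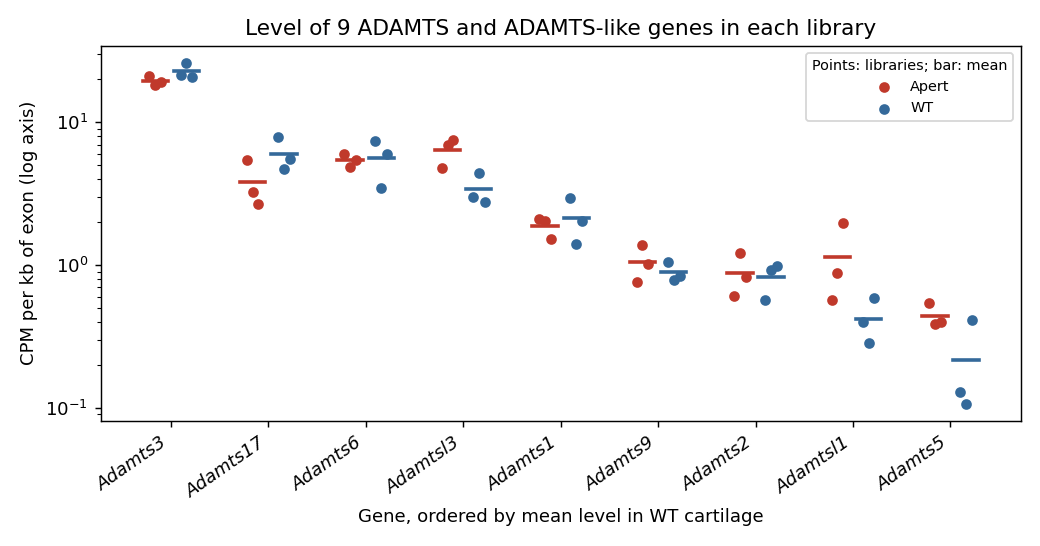
Level of the 9 genes that passed the filter, as CPM per kb of exon on a log axis, with 1 point per library (3 Apert in red, 3 WT in blue) and a bar at each mean. Adamts3 is highest in every library (18.2 to 21.2 in Apert, 20.8 to 26.1 in WT), and Adamtsl3 is the gene whose Apert points all lie above its WT points. Adamtsl2 is not drawn because it had 0 counts in 3 libraries.

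None of the 9 genes passed the test between the genotypes. Mean CPM was lower in Apert than in WT cartilage for Adamts17 and higher for Adamtsl1, the pair already noted when the list was drawn up, and higher for Adamtsl3. On the log2 scale the fitted differences, Apert over WT, ran from -0.65 for Adamts17 to 1.41 for Adamtsl1, with 5 positive and 4 negative among the 9 genes. Their median was 0.10, against 0.01 for all 13333 tested genes. None of the 9 had an adjusted p below 0.05 in edgeR's quasi-likelihood fit across all genes, in which 0.45% of tested genes were called. At an unadjusted p below 0.05 there were 3 of them, beside 11.4% of all tested genes. After adjustment DESeq2 called 1, Adamtsl3 (2.1% of genes with an adjusted p), and limma-voom called 0 (0.51%). The edgeR count was 2, Adamtsl1 and Adamtsl3, with no filter on low counts (1.07% of all genes tested then) and 3, with Adamts17 besides, without Apert replicate 1 (1.65%). Since the list was chosen with this contrast known, nothing is read from these counts. The 3 Apert and 3 WT libraries did not overlap for 1 of the 9 genes, Adamtsl3, as against 16.6% of all tested genes (8.92% with Apert above WT).

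Among the proteases linked to microfibrils, Adamts17, whose human counterpart is mutated in a Weill-Marchesani-like syndrome of short stature, was at 39.4, 23.7 and 19.4 CPM in Apert replicates 1 to 3 and at 57.1, 33.8 and 39.7 CPM in WT replicates 1 to 3. The groups overlapped in 1 library: Apert replicate 1 lay above WT replicate 2, and the other Apert libraries lay below all WT libraries. Adamts17 averaged 27.5 ± 10.5 CPM in Apert and 43.6 ± 12.1 CPM in WT cartilage (SD, n = 3 each), a log2 fold change of -0.65 with a standard error of 0.25. Without Apert replicate 1 it was -1.04, and without WT replicate 1 it was -0.41. Relative to Adamts3 counts of the same library, a measure that needs no scaling, Adamts17 stood at 0.242, 0.170 and 0.133 in Apert replicates 1 to 3 and at 0.346, 0.169 and 0.249 in WT replicates 1 to 3, so the groups overlapped on that measure too.

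Adamts6, a relative of the microfibril protease gene Adamts10, was at 28.8, 23.7 and 26.2 CPM in Apert replicates 1 to 3 and at 36.0, 16.8 and 29.0 CPM in WT replicates 1 to 3. The Apert libraries all lay inside the WT range. The fitted difference of Adamts6 was -0.05 (log2, standard error 0.24), and it was positive without WT replicate 1 (0.20) and negative without WT replicate 2 (-0.31).

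Of the ADAMTS-like genes, both that were tested had a higher mean in Apert cartilage. Adamtsl3, also called punctin 2, was at 37.0, 54.0 and 58.5 CPM in Apert replicates 1 to 3 and at 23.1, 34.2 and 21.5 CPM in WT replicates 1 to 3. All Apert libraries lay above all WT libraries, with Apert replicate 1 and WT replicate 2 nearest to each other. Apert replicate 1 held 373 of 10527915 counts and WT replicate 2 held 355 of 10053237. Scaled by library totals alone, these libraries lay almost level. Its mean was 49.8 ± 11.4 CPM in Apert and 26.3 ± 6.90 CPM in WT cartilage (SD, n = 3 each), for a log2 fold change of 0.92 (standard error 0.22). Leaving out 1 library at a time gave 0.77 to 1.15. Relative to Adamts3 in the same library, Adamtsl3 counts stood at 0.228, 0.388 and 0.399 in Apert replicates 1 to 3. In WT replicates 1 to 3 they stood at 0.140, 0.171 and 0.135, with no overlap between the groups. Adamts3 itself had a fitted difference of -0.23 (log2). Ratios to it therefore widen the gap of Adamtsl3 and narrow that of Adamts17.

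Adamtsl1, also called punctin, was at 6.25, 9.53 and 21.4 CPM in Apert replicates 1 to 3 and at 4.33, 3.08 and 6.39 CPM in WT replicates 1 to 3. Apert replicate 1 lay just below WT replicate 3, so the groups overlapped, and Apert replicate 3 stood above all other libraries. The mean was 12.4 ± 7.97 CPM in Apert and 4.60 ± 1.67 CPM in WT cartilage (SD, n = 3 each), a log2 fold change of 1.41 with a standard error of 0.42. Without Apert replicate 3 the log2 fold change was 0.76. These values rest on 63, 70 and 132 counts in Apert replicates 1 to 3 and on 50, 32 and 59 counts in WT replicates 1 to 3.

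**Figure D2:**
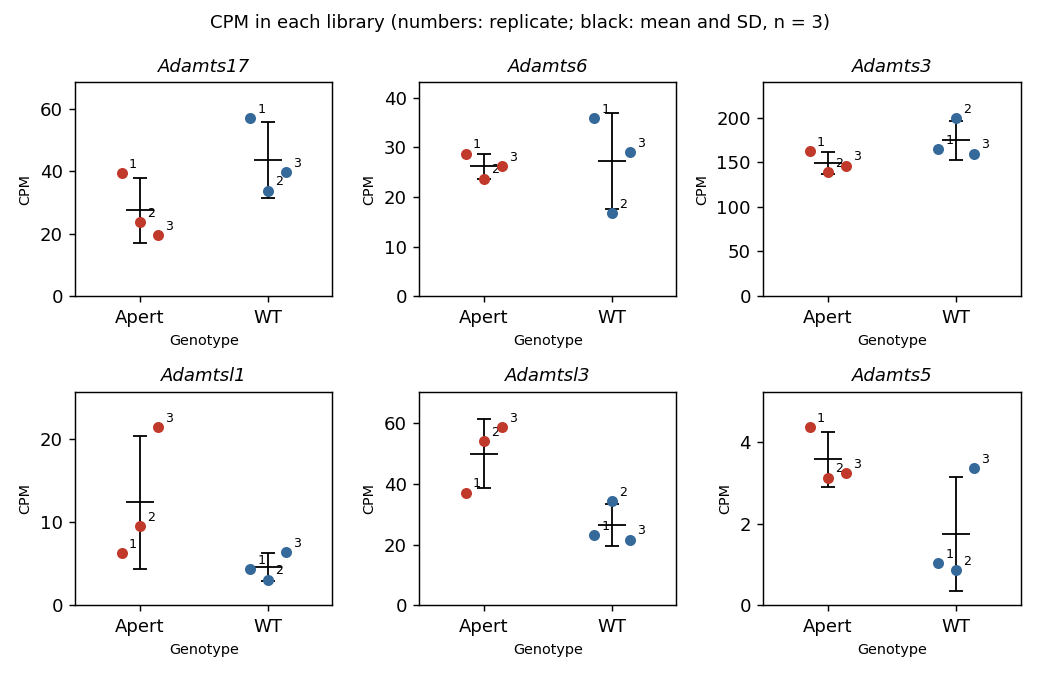
CPM in each library for 6 of the genes, with the replicate number beside each point and the mean and SD in black (n = 3 per group, axes from 0). Adamtsl3 has all Apert libraries (37.0 to 58.5 CPM) above all WT libraries (21.5 to 34.2 CPM), while in the other 5 panels the groups overlap.

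Markers of other cell types were summed in the same libraries. The level of 14 perichondrium and fibrous mesenchyme markers together was 4499 to 5194 CPM in Apert libraries and 3390 to 3934 CPM in WT libraries, without overlap, and none of the 14 was at 0 in all libraries. Of the 13 tested, 2 passed the edgeR quasi-likelihood test with higher values in Apert, Col3a1 and Ogn, the gene of the small proteoglycan osteoglycin. Of all tested genes 0.45% passed, in either direction. In bulk tissue, more cells of a type and more RNA per cell cannot be told apart. The sum of 12 chondrocyte markers, most of it from Col2a1 and Hapln1, overlapped, at 29579 to 32158 CPM in Apert and 29027 to 39498 CPM in WT libraries. Of the 12, 11 were tested and none passed the edgeR test. In 3 all Apert libraries lay below all WT libraries, as in 7.7% of all tested genes. The 3 markers were the cartilage transcription factor gene Sox9 (338 to 618 CPM in Apert, 637 to 845 CPM in WT; log2 fold change -0.67, adjusted p = 0.125), the matrix protein gene Chad (101 to 108 CPM in Apert, 143 to 187 CPM in WT; -0.63, adjusted p = 0.0695) and Col9a2, a chain of type IX collagen (132 to 153 CPM in Apert, 155 to 249 CPM in WT; -0.43, adjusted p = 0.344).

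Other markers were far lower. Glia markers summed to 279 to 332 CPM in Apert and 371 to 437 CPM in WT libraries, without overlap, with Foxd3 at 0 in all 6. Neuron markers summed to 236 to 269 CPM in Apert and 194 to 235 CPM in WT libraries. Skeletal muscle markers summed to 33.5 to 39.1 CPM in Apert and 22.0 to 33.0 CPM in WT libraries. Neither overlapped, but the nearest libraries were close, at 235.6 against 234.8 CPM and 33.5 against 33.0 CPM. TMM factors were 0.913 to 0.972 in Apert and 1.03 to 1.07 in WT libraries. That scaling raised Apert values relative to WT by more than these gaps. The muscle genes Myod1, Myog, Myf5 and Myh8 were at 0 in all libraries. Of 10 markers in each of these 3 lists, 8 glia, 4 neuron and 2 muscle markers were tested, and none passed the edgeR test. Sums of endothelial (26.1 to 30.8 CPM in Apert, 18.1 to 34.1 CPM in WT), macrophage (7.73 to 19.5 CPM in Apert, 9.88 to 15.0 CPM in WT), epithelial (1.09 to 3.08 CPM in Apert, 1.19 to 2.43 CPM in WT, with Cdh1 and Krt14 at 0) and erythroid markers (58.5 to 70.6 CPM in Apert, 50.3 to 92.6 CPM in WT) overlapped. The part of any of these lists, or of the number of genes detected, in the values of Adamts17, Adamtsl1 and Adamtsl3 was not tested. With mitochondrial genes removed from the libraries, the fitted log2 differences were -0.66 for Adamts17, 1.41 for Adamtsl1 and 0.91 for Adamtsl3.

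Both procollagen proteases overlapped between the groups. Adamts3, which trims type II procollagen and takes part in activating the lymphatic growth factor VEGF-C, was at 163, 139 and 146 CPM in Apert replicates 1 to 3 and at 165, 199.9 and 160 CPM in WT replicates 1 to 3. Apert replicate 1 lay above WT replicate 3, so the groups overlapped, and WT replicate 2 was the highest. The fitted difference of Adamts3 was -0.23 (log2, standard error 0.14), with the smallest error among the 9 genes, and its direction held with each library left out (-0.32 to -0.12). Adamts2, which trims types I and III procollagen, ran from 5.65 to 11.4 CPM in Apert and from 5.29 to 9.20 CPM in WT libraries. Its fitted difference was 0.10 (log2, standard error 0.35), and it was -0.22 without Apert replicate 2.

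The proteases that cut aggrecan and versican were weakly expressed. Adamts5 was at 4.36, 3.13 and 3.24 CPM in Apert replicates 1 to 3 and at 1.04, 0.867 and 3.36 CPM in WT replicates 1 to 3. WT replicate 3 lay among the Apert libraries and the other WT libraries lay below all of them. The fitted difference of Adamts5 was 1.05 (log2, standard error 0.59), and without WT replicate 3 it was 1.90, on 9 to 44 counts per library. Adamts1 ran from 8.10 to 11.2 CPM in Apert and from 7.42 to 15.8 CPM in WT libraries (log2 fold change -0.18, standard error 0.31), and the Apert libraries lay inside the WT range. Without WT replicate 1 the log2 fold change of Adamts1 was 0.14. Adamts9 ran from 9.62 to 17.3 CPM in Apert and from 9.83 to 13.2 CPM in WT libraries (0.23, standard error 0.28), and without Apert replicate 2 its log2 fold change was -0.02.

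**Figure D3:**
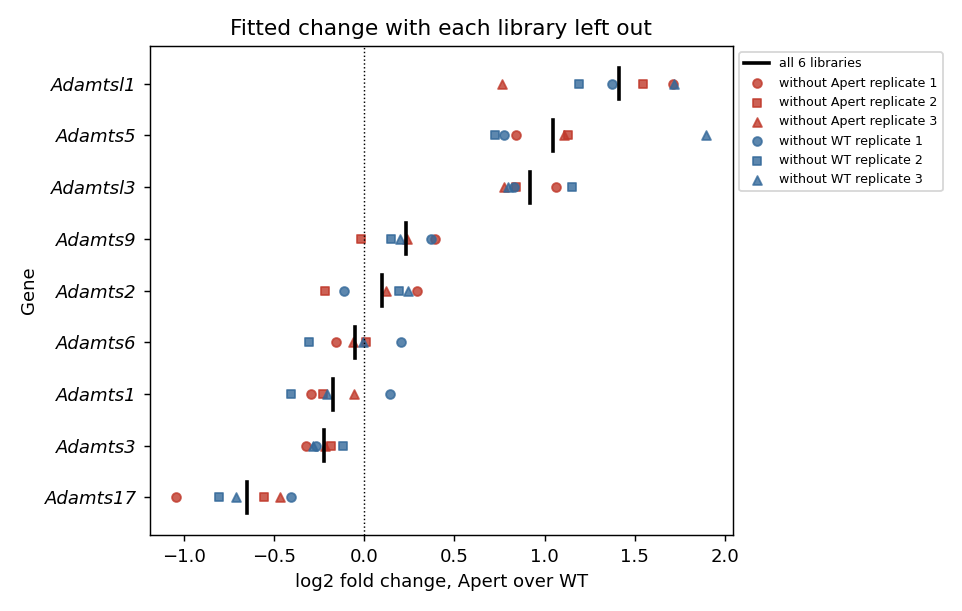
Fitted log2 fold change (Apert over WT) of the 9 genes with all 6 libraries (black bar) and with each library left out (red markers leave out an Apert library, blue markers a WT library). The points of Adamts17 stay below 0 (-1.04 to -0.41) and those of Adamtsl1, Adamtsl3, Adamts5 and Adamts3 keep their sign, while Adamts1, Adamts2, Adamts6 and Adamts9 cross 0.

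Summed over the 10 genes, the level overlapped between the groups, at 40.6 ± 1.38 CPM per kb in Apert and 42.4 ± 2.54 CPM per kb in WT cartilage (SD, n = 3 each). The 3 ADAMTS-like genes took 12.8%, 20.0% and 23.6% of it in Apert replicates 1 to 3. In WT replicates 1 to 3 these genes took 7.69%, 11.2% and 8.49%, without overlap between the groups. Nearly all of that share is Adamtsl1 and Adamtsl3, and Adamts17 is part of the sum. The share therefore restates the values of these genes given above and is no separate result. The 7 proteases summed to 33.0 ± 3.15 CPM per kb in Apert and 38.6 ± 2.67 CPM per kb in WT cartilage, and Apert replicate 1 lay just above WT replicate 3. Adamts2 and Adamts3 together took 49.1% to 51.9% in Apert libraries and 49.0% to 64.0% in WT libraries.

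**Figure D4:**
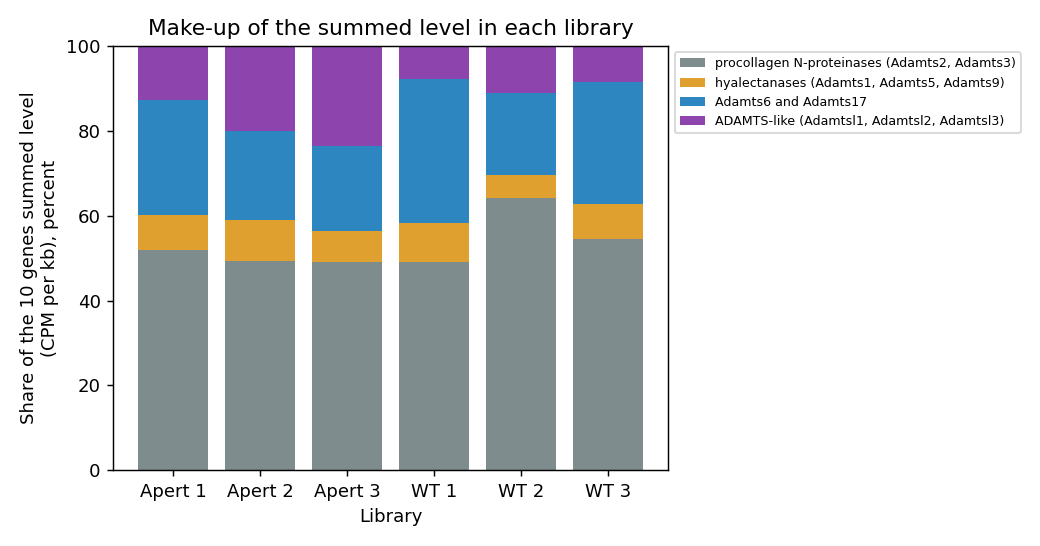
Share of the summed level of the 10 genes (CPM per kb, percent) by role in each library. The ADAMTS-like share at the top of each bar is 12.8% to 23.6% in Apert libraries and 7.69% to 11.2% in WT libraries. It restates the values of Adamtsl1, Adamtsl3 and Adamts17.

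The patterns most like those of Adamts17 and Adamtsl1 over the 6 libraries were found by the root mean square difference of centred log2 CPM. The search covered 7139 genes with a mean of at least 10 CPM. Genes lacking a symbol, and those with symbols of the Gm-number, Rik or -ps type, were left out. Nearest to Adamts17 were Errfi1, a feedback inhibitor of EGF receptors (0.11), the metal transporter family gene Cnnm3 (0.13) and the homeobox gene Six2 (0.15). Nearest to Adamtsl1 were the guidance ligand gene Sema3a (0.25), Parpbp (0.39), which shares exons with Pmch, and the EGF receptor gene Egfr (0.41). Sema3a was at 45.1, 56.9 and 105 CPM in Apert replicates 1 to 3 and at 24.8, 28.4 and 35.8 CPM in WT replicates 1 to 3, so its highest library was Apert replicate 3, as for Adamtsl1. Errfi1 was at 37.6, 24.1 and 21.4 CPM in Apert replicates 1 to 3 and at 54.7, 36.7 and 35.4 CPM in WT replicates 1 to 3, with replicate 1 highest in each group, as for Adamts17. These likenesses are descriptions over 6 libraries that share the genotype contrast.

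Of 16 further genes of the family, 9 were tested. None passed the edgeR quasi-likelihood test, and none passed with DESeq2 or limma-voom after adjustment. At an unadjusted p below 0.05 in edgeR there was 1, beside 11.4% of all tested genes. The median log2 fold change of the 9 was 0.14. Adamts10, a microfibril protease gene, and Adamts19, the closest relative of Adamts17, had levels near that of Adamts3. Adamts10 was at 21.3 ± 9.73 CPM per kb in Apert and 17.3 ± 1.50 CPM per kb in WT cartilage, and Adamts19 at 17.8 ± 1.73 CPM per kb in Apert and 16.2 ± 1.63 CPM per kb in WT cartilage (SD, n = 3 each). The fitted difference of Adamts19 was 0.14 (log2, standard error 0.16; edgeR, adjusted p = 0.788), where that of Adamts17 was -0.65; the difference between these genes was not tested. With library totals alone Adamts19 was at -0.02. Adamts10 ran from 56.8 CPM in Apert replicate 1 to 159 CPM in Apert replicate 2 and from 89.6 to 104 CPM in WT libraries, so Apert libraries lay on both sides of the WT range. Its log2 fold change was 0.29 and was -0.03 without Apert replicate 2. Adamts12, a protease of cartilage oligomeric matrix protein, had the smallest p, with 31.2 ± 8.48 CPM in Apert and 21.2 ± 2.73 CPM in WT cartilage (log2 fold change 0.55, adjusted p = 0.354; 0.33 without Apert replicate 3).

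The third procollagen protease gene, Adamts14, had a log2 fold change of -0.18, the fibrillin-binding Thsd4 of -0.34, the versican protease gene Adamts20 of 0.28, Adamts7, which shares exons with Tbc1d2b, of 0.34, Adamtsl4 of -0.22 and the aggrecanase gene Adamts4 of -0.84 (standard error 0.68). Their edgeR adjusted p ran from 0.694 for Adamts4 to 0.921 for Adamtsl4. Adamts4 was at 1.44 ± 0.877 CPM in Apert and 2.55 ± 2.16 CPM in WT cartilage, and without WT replicate 1 its log2 fold change was 0.12. Without WT replicate 2 Thsd4 was at 0.05, Adamtsl4 at 0.22 and Adamts20 at 0.04, without Apert replicate 3 Adamts20 was at 0.03, and after GC correction Adamts14 was at 0.12. Below the filter were Adamts8, Adamts13, Adamts15, Adamts16, Adamts18, Adamtsl5 and Papln, of which Adamts16 had 0 counts in all 6 libraries.

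**Figure D5:**
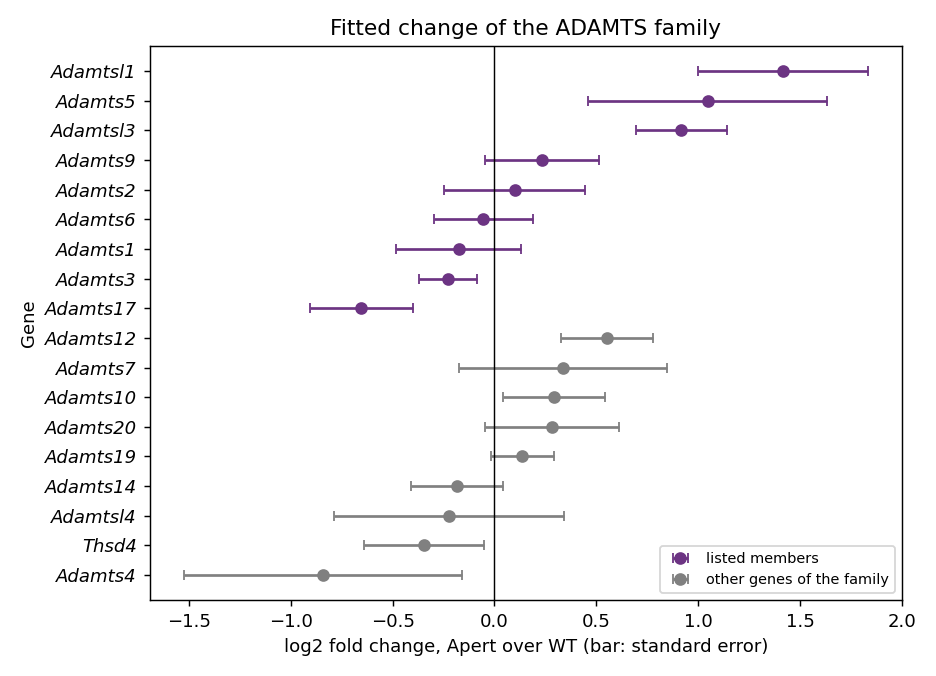
Fitted log2 fold change (Apert over WT) with its standard error for the 9 listed genes that were tested (purple) and for the 9 other tested genes of the family (grey). Adamtsl1 (1.41), Adamts5 (1.05) and Adamtsl3 (0.92) lie farthest to the right and Adamts4 (-0.84) and Adamts17 (-0.65) farthest to the left, with the widest error for Adamts4.

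Genes that act with these proteins were tested in the same fit. Of 71 such genes, the 16 family genes above included, 60 were tested. The edgeR quasi-likelihood test called 2 (3.33%, against 0.45% of all tested genes). The lists were chosen with earlier results of these data known, so no enrichment is read from this share. Col3a1, type III procollagen, a substrate of the procollagen proteases and also 1 of the perichondrium markers above, rose to 452 ± 15.8 CPM in Apert, against 279 ± 35.1 CPM in WT cartilage (log2 fold change 0.69, standard error 0.14, adjusted p = 0.0322; SD, n = 3 each). Sdc4, syndecan 4, a heparan sulfate proteoglycan that regulates ADAMTS5 activity in cartilage, fell to 44.6 ± 4.99 CPM in Apert, against 91.0 ± 24.3 CPM in WT cartilage (log2 fold change -1.02, standard error 0.19, adjusted p = 0.0248; SD, n = 3 each). Neither passed after correction for GC content (adjusted p = 0.0568 for Col3a1 and 0.0642 for Sdc4) or without Apert replicate 2, Apert replicate 3 or WT replicate 3. Both also missed the threshold without WT replicate 2, and Col3a1 without WT replicate 1 and with library totals alone (adjusted p = 0.102). Over all 16 alternatives the log2 fold change of Col3a1 ran from 0.54 to 0.80 and that of Sdc4 from -1.21 to -0.82.

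Among 12 tested proteoglycan substrates and partners none passed with edgeR, DESeq2 or limma-voom. At an unadjusted p below 0.05 in edgeR there were 4, beside 11.4% of all tested genes. The median log2 fold change of the 12 was -0.25, against 0.01 for all tested genes. Aggrecan itself, Acan, was at 831 ± 120 CPM in Apert and 1156 ± 372 CPM in WT cartilage (-0.48, adjusted p = 0.322), with a log2 fold change of -0.18 without WT replicate 2 and -0.28 after GC correction. Matn3, a cartilage adaptor protein, had a log2 fold change of 0.85 (adjusted p = 0.197), the small proteoglycan gene Bgn of 0.44 (0.234) and the transmembrane proteoglycan gene Cspg4 of -0.53 (0.254). Without WT replicate 1 Matn3 was at 0.51, and with library totals alone Bgn was at 0.29. Cspg4 was at -0.26 without WT replicate 2 and at -0.20 after GC correction. Matn3, Acan and Cspg4 each passed in at least 1 of the 16 alternatives, and Bgn in none. In the procollagen list 1 of 12 tested genes rose, Col3a1, and 11 did not pass (median 0.29). At an unadjusted p below 0.05 in edgeR there were 5 of the 12, and DESeq2 also called Col5a2. There Col5a2, a chain of type V collagen, was at 122 ± 38.9 CPM in Apert and 74.9 ± 4.59 CPM in WT cartilage (0.70, adjusted p = 0.135), and Col1a1 had a log2 fold change of 0.84 (0.165). Lox, which crosslinks collagen and elastin, was at 0.45 (0.398) and Bmp1, the procollagen C-proteinase gene, at -0.57 (0.376). Without Apert replicate 3 Col5a2 was at 0.43 and Lox at 0.23, and without WT replicate 2 Col1a1 was at 1.30. Bmp1 was at -0.86 without Apert replicate 2 and -0.34 after GC correction. Col5a2 and Col1a1 each passed in at least 1 of the 16 alternatives, and Lox and Bmp1 in none.

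None of 12 tested microfibril partners passed the edgeR test. At an unadjusted p below 0.05 there were 5, beside 11.4% of all tested genes. DESeq2 called 1, Emilin1, and limma-voom called none. The median log2 fold change of the 12 was -0.24. The libraries of the groups did not overlap for 5 of the 12, beside 16.6% of all tested genes. In 4 of the 5 Apert lay below WT, beside 7.7% of all tested genes. Other lists held such genes too: 5 of 15 inhibitors, activators and cofactors (3 with Apert below WT), 3 of 12 procollagen genes and 3 of 12 proteoglycan genes. Among the 9 further family genes there were 0. Emilin1, a microfibril and elastic fibre protein, was at 50.5 ± 15.2 CPM in Apert and 81.8 ± 8.38 CPM in WT cartilage (-0.69, adjusted p = 0.147), and its log2 fold change was -0.35 after correction for GC content. Mfap2, which binds fibrillin, was at -0.82 (0.354; -0.48 after GC correction) and elastin, Eln, at 1.05 (0.340). Among 15 tested inhibitors, activators and cofactors Sdc4 fell and 14 did not pass (median -0.13). In edgeR 5 of the 15 were at an unadjusted p below 0.05. Timp3, the inhibitor with the strongest action on aggrecan-cutting ADAMTS proteases, was at 60.6 ± 14.6 CPM in Apert and 88.9 ± 9.80 CPM in WT cartilage (-0.55, adjusted p = 0.231) and shares exons with Syn3. Pcsk5, a proprotein convertase, was at 93.2 ± 10.3 CPM in Apert and 66.3 ± 5.31 CPM in WT cartilage (0.49, adjusted p = 0.204). The convertase gene Furin had a log2 fold change of -0.49 (0.434), and Pofut2, which adds fucose to thrombospondin repeats and so aids ADAMTS secretion, of -0.53 (0.285). Without WT replicate 2 Furin was at -0.25 and Pofut2 at -0.34. Timp3 passed in at least 1 of the 16 alternatives, and Pcsk5, Furin and Pofut2 in none.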

How the data were processed

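RNA was amplified from 15 ng of total RNA and sequenced as paired reads of 100 bp, per the labels' protocols. The deposited values are whole-number counts of fragments per Ensembl gene, made by the authors with featureCounts 1.4.4 over exons without regard to strand on Ensembl release 75 models, per the file headers. The gene length used for CPM per kb is the summed exon length, another value in the deposited tables, per the file headers. Also listed, per the submitters' processing notes, are the build mm10, the aligner STAR 2.5.2b and cutadapt. Amplification from small input can raise the spread of weakly expressed genes, and molecular identifiers are not mentioned in the labels.

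Symbols were matched for 37607 of 38924 identifiers, and no per-sample column was left unused. Identifiers lacking a symbol (1317, with 0.168% to 0.205% of the counts) were kept. Analysis used R 4.3.3: edgeR 4.0.16 filterByExpr kept 13333 genes, with TMM scaling and the quasi-likelihood F test, Benjamini-Hochberg adjusted at 0.05. The fitting code was run on simulated counts before use. Standard errors are the log2 fold change divided by the square root of F. The labels give 1 library per mouse. No label ties equal replicate numbers to a litter or day. Alternatives used DESeq2 1.42.0, limma 3.58.1 (voom) and mgcv 1.9.3 (GC content, known for 98.9% of tested genes). The filter on low counts was applied anew in each fit without a library.

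Members, lists and tests were chosen with earlier results of these data known. Named were all 10 genes, the called genes and up to 4 more with the smallest p of each list, family genes of at least 1 CPM, and the 3 nearest patterns of Adamts17 and Adamtsl1, computed with 0.5 CPM added before taking log2. Fgfr2 and Ogn were named besides, and 1 microfibril gene that met the rule is not reported here, for a reason unrelated to its values.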

Additional observations from a re-analysis of the deposited data

How the results depend on the processing

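Over 16 alternatives, 142 of 144 log2 fold changes of the 9 genes moved by less than the spread between replicates. The others were Adamts3 with library totals alone (-0.38), where the median of all genes was -0.14, and Adamts5 without WT replicate 3 (1.90). Leaving out 1 of 3 libraries can hardly move a mean beyond that spread, so this count says little about stability. It takes Adamtsl1 at 0.76 without Apert replicate 3 and Adamts1 at 0.14 without WT replicate 1 as unmoved. With totals alone Adamts2 was at -0.05, and with limma-voom Adamts6 was at 0.01. The sign held under all 16 for Adamts3, Adamts5, Adamts17, Adamtsl1 and Adamtsl3. With no filter on low counts 2 of these genes passed the threshold, Adamtsl1 and Adamtsl3, beside 1.07% of all genes tested then. DESeq2 called 1, Adamtsl3, beside 2.1% of genes with an adjusted p. With each library left out 0 to 3 passed. The 3 (Adamts17, Adamtsl1 and Adamtsl3) passed without Apert replicate 1, beside 1.65% of all genes tested then. Nothing is read from these counts, since the list was chosen with this contrast known.

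Over all genes 60 were called, 247 with no filter, 204 with DESeq2, 5 after GC correction and 0 to 229 with each library left out (0 without WT replicate 3, 2, 11, 15 and 23 without Apert replicate 2, Apert replicate 3, WT replicate 1 and WT replicate 2, 229 without Apert replicate 1). With totals alone 17 were higher and 24 lower in Apert, in place of 53 and 7. Of the genes that act with the family, 2 were called, 1 with totals alone, 8 with no filter, 4 with DESeq2, 0 after GC correction and 0 to 7 with each library left out. Of 429 values for 27 genes of these lists none that was called changed sign, 12 lost their call and 17 gained one. The cause of these changes was not tested.

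With the replicate number as a block, 172 of 13333 tested genes were called. Among them were 6 of the genes that act with the family and 1 of the listed genes (Adamtsl3). The correlation of deviations between libraries of equal number was 0.19, 0.02 and 0.09 for numbers 1 to 3. These values do not settle whether equal numbers mark pairs. The numbers were not taken as pairs because no label ties them to a litter or day. Libraries 1 and 3 of each group correlated best with their own number, and the libraries numbered 2 did not. Low counts limit Adamts5 (9 to 44 per library), Adamtsl1 (32 to 132) and Adamtsl2.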
